A study of Mus musculus with 18 samples.

Results

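Genes of TGF-beta signalling and of the mesenchymal state, 10 in number, were followed across cultured mouse tumour cells. Those of the signal were the ligand genes Tgfb1, Tgfb2 and Tgfb3, the receptor genes Tgfbr1 and Tgfbr2, and the signalling inhibitor Smad7. Those of the mesenchymal state were the transcription factor genes Zeb1, Zeb2 and Snai2, and Vim, which encodes the intermediate filament protein vimentin. They were taken by gene symbol from the deposited expression table, which held all 10 of them among its 18909 genes, and all 10 passed the filter on low values in each comparison. B16F10 is a melanoma line and E0771 a mammary tumour line, both from the C57BL6 mouse strain. Cells of each line carried the inducible pRetrox vector either empty (control), with MRTFA or with MRTFB, the 2 myocardin-related transcription factors that join serum response factor on the promoters of actin and cytoskeletal genes. All 6 groups, controls included, received doxycycline at 500 ng/mL for 48 h in serum-containing RPMI medium, with 3 libraries per group. No label states that the 3 were grown as separate cultures, and p-values therefore measure only the spread between these libraries, which may be technical.

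TGF-beta ligands are secreted in a latent complex and, once released, bind the type II receptor, which recruits and phosphorylates the type I receptor. The type I receptor in turn phosphorylates Smad2 and Smad3, which enter the nucleus with Smad4, while Smad7 blocks the type I receptor as a feedback inhibitor. ZEB1, ZEB2 and SNAI2 (Slug) repress epithelial genes such as E-cadherin in the epithelial-mesenchymal transition, and vimentin is a common marker of the mesenchymal state. In melanocytes and melanomas ZEB2 and SNAI2 are associated with the differentiated state and ZEB1 with the dedifferentiated one.

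Values are reads per gene divided by the library's size factor, called scaled reads here, from libraries of 27607055 to 37116655 reads. Melanocyte markers (Tyr, Tyrp1, Dct, Pmel, Mlana, Sox10) summed to 549326 to 741350 scaled reads per library in B16F10 and 108 to 162 in E0771. The 3 mammary epithelial markers in the table (Krt8, Epcam, Cdh1) summed to 5723 to 16665 in E0771 and 15.0 to 76.0 in B16F10. The sum hides a marker of the other direction. Between the controls Krt8 and Epcam were higher in E0771 (limma, adjusted p under 0.05). Cdh1, the E-cadherin gene, was lower there, at a log2 difference of -3.24. Of other cell types, the immune marker in the table, Csf1r, reached at most 15.7, and the 2 endothelial markers summed to at most 26.5. The 3 fibroblast markers in the table summed to 477 to 6951. Dcn among them was at 0 in the E0771 controls and was counted in every other group. Mkl1, the table's symbol for the gene of MRTFA, averaged 1349 ± 202 scaled reads (SD, n = 3) in E0771 controls and 13728 ± 2454 in the E0771 MRTFA libraries. In B16F10 it averaged 1015 ± 83.3 in controls and 1205 ± 266 in the libraries labelled MRTFA, a log2 difference of 0.22 that did not pass the test (limma, adjusted p = 0.856). Mkl2, the gene of MRTFB, was higher in E0771 MRTFB by 0.68 log2 (limma, adjusted p = 0.0306), a call lost when any 1 of the 6 libraries was left out, at 0.63 to 0.74. In the B16F10 libraries labelled MRTFB it was higher by 0.35 log2, which did not pass (limma, adjusted p = 0.503). The sources used here do not give whether transgene reads were counted under these mouse genes.

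The control libraries show how the lines differed without a transgene. Zeb1 and Tgfb1 were far higher in E0771, Snai2, Tgfbr1, Zeb2 and Tgfbr2 were higher in B16F10, and Tgfb2 and Tgfb3 did not differ by the test. In all, 8 of the 10 genes were called (limma on log2 of scaled reads plus 1, Benjamini-Hochberg adjusted p under 0.05), 4 higher and 4 lower in E0771. The background over all 14859 tested genes was 70.2%, with 33.4% higher and 36.8% lower. Libraries of the 2 lines did not overlap for the same 8 genes, against 72.3% of all tested genes. The labels name no batch, so line and any batch of handling cannot be told apart.

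Zeb1 read 2.89, 7.79 and 6.68 scaled reads in the 3 B16F10 controls and 1824, 2023 and 1985 in the E0771 controls. B16F10 held almost no Zeb1 message and E0771 held it in quantity, with a log2 difference of 8.25 (SE 0.40, adjusted p = 8.13e-12). The first B16F10 library held only 3 reads of Zeb1. Zeb2 had the reverse order, with 8130, 7842 and 9869 in B16F10 and 2916, 3686 and 3819 in E0771, without overlap (log2 difference -1.31, SE 0.12, adjusted p = 3.48e-08). Per kilobase of exon, Zeb1 made up 0.131% ± 0.062 (SD, n = 3) of the 2 ZEB messages together in B16F10 controls and 52.2% ± 2.37 in E0771 controls. The B16F10 cells therefore held almost only Zeb2 message of the pair, and the E0771 cells nearly equal amounts of both per kilobase of exon.

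Snai2 read 229, 163 and 246 in B16F10 controls against 6.04, 7.01 and 37.4 in E0771 controls, so the groups did not overlap (log2 difference -4.02, SE 0.56, adjusted p = 6.58e-06). The third E0771 control stood above the other two, and without it the difference was -4.81. Melanocyte marker sums were 138, 137 and 162 in the E0771 controls, 138, 156 and 144 with MRTFA and 152, 118 and 108 with MRTFB. Whether melanoma RNA had a part in the Snai2 values was not tested. Vim was the most abundant of the 10 genes in scaled reads, between 73154 and 84941 in B16F10 controls and between 96466 and 122243 in E0771 controls, a log2 difference of 0.43 (SE 0.12, adjusted p = 0.00407).

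Among the ligands, Tgfb1 separated the lines, with 55.5 to 93.5 scaled reads in B16F10 controls and 1115 to 1275 in E0771 controls (log2 difference 4.03, SE 0.24, adjusted p = 9.39e-11). Tgfb2 differed by 0.02 log2 (95% interval -0.48 to 0.51) and Tgfb3 by -0.16 (-0.48 to 0.16), and neither passed. Per kilobase of exon, Tgfb3 made up 73.9% ± 5.99 of the 3 ligand messages in B16F10 controls, Tgfb2 22.0% ± 7.18 and Tgfb1 4.11% ± 1.20. In E0771 controls Tgfb1 and Tgfb3 stood level by this measure, at 43.1% ± 3.63 and 43.0% ± 3.62, and Tgfb2 made up 13.9% ± 2.19. That standing depends on the exon lengths used, 5042 bases for Tgfb1 and 3383 for Tgfb3. By scaled reads alone Tgfb1 was the higher of the pair there.

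Both receptor messages were more abundant in B16F10. Tgfbr1, the type I receptor, read 4231 to 5163 there and 893 to 1122 in E0771 controls (log2 difference -2.23, SE 0.12, adjusted p = 2.35e-11). Tgfbr2, the type II receptor, read 1673 to 1768 against 672 to 872 (-1.19, SE 0.13, adjusted p = 4.32e-07). Smad7 was the other way round, with 375 to 652 in B16F10 and 758 to 867 in E0771 controls (0.73, SE 0.21, adjusted p = 0.00513).

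**Figure D1:**
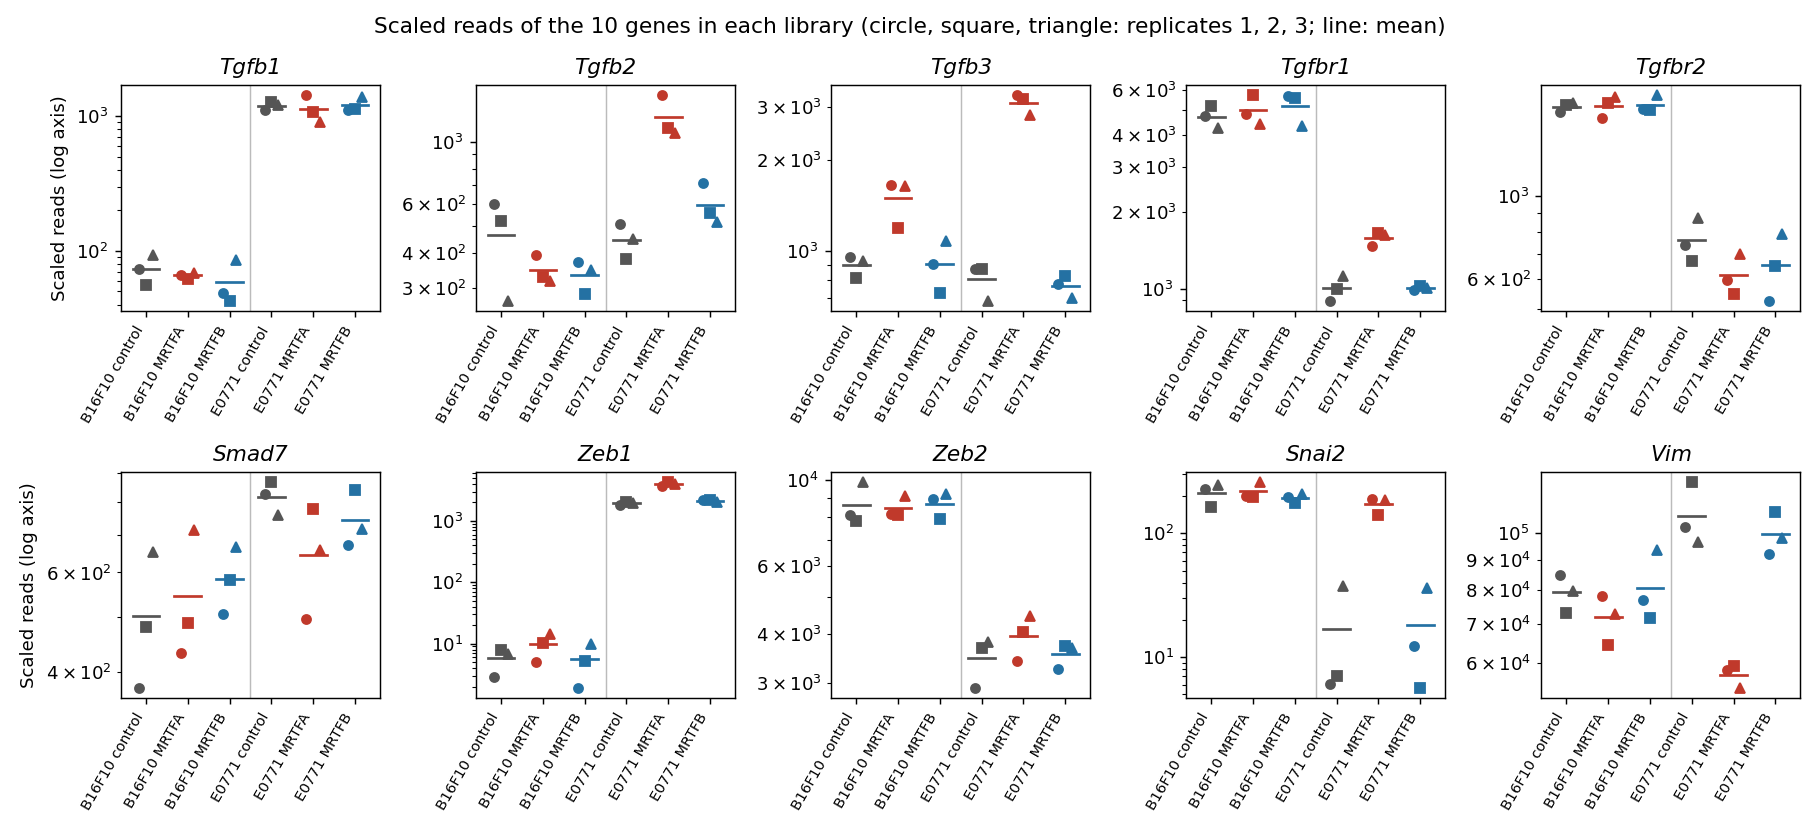
Scaled reads of each gene (log axis, scaled separately per panel) in the 3 libraries of the 6 groups, with the group mean as a line and B16F10 to the left of the grey divider. The E0771 MRTFA libraries stand apart from the other E0771 libraries for Tgfb2, Tgfb3, Tgfbr1, Zeb1, Snai2 and Vim, and Zeb1 is near 10 scaled reads or below in B16F10 apart from 1 library at 14.3.

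MRTFA in E0771 came with more message for 2 of the 3 ligands, for the type I receptor and for Zeb1 and Snai2, and with less Vim. Of the 10 genes, 6 were called, 5 higher and 1 lower. The share over all 13189 tested genes was 38.4%, made up of 20.3% higher and 18.1% lower. The median log2 difference of the 10 genes was 0.42, and that of all tested genes -0.02. Those 6 genes were also the ones whose 3 MRTFA and 3 control libraries did not overlap, against 50.1% of all tested genes. edgeR and DESeq2 called the same 6 genes. In bulk RNA, fewer cells holding a message and less of it per cell cannot be told apart. In the same libraries the mammary epithelial marker sum was 14656 to 16665 with MRTFA and 5723 to 7826 in controls. Of these markers 2 were tested there. Krt8 was called higher (1.22), and the other went the other way without being called (-0.30). The fibroblast marker sum was 1760 to 5259 with MRTFA and 1404 to 3659 in controls. The part of either marker set in the results on the 10 genes was not tested.

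Tgfb3 rose the most among the ligands. Its scaled reads were 869, 871 and 682 in the controls and 3282, 3179 and 2821 with MRTFA, and the lowest MRTFA library was above 3 times the highest control. The log2 difference was 1.94 (SE 0.12, 95% interval 1.68 to 2.21, adjusted p = 8.51e-07). Tgfb2 read 506, 382 and 449 in the controls and 1466, 1121 and 1075 with MRTFA, also without overlap, a log2 difference of 1.45 (SE 0.17, adjusted p = 7.51e-05). Tgfb1, the founding member of the ligand family, did not pass: 1115 to 1275 in the controls and 914 to 1434 with MRTFA, a log2 difference of -0.10 (95% interval -0.45 to 0.25, adjusted p = 0.665).

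The ligand make-up of E0771 therefore shifted. The 3 ligand messages together came to 554 ± 30.3 scaled reads per kilobase of exon (SD, n = 3) in controls and 1351 ± 154 with MRTFA. Tgfb3 went from 43.0% ± 3.62 to 67.9% ± 3.06 of that sum and Tgfb1 from 43.1% ± 3.63 to 16.6% ± 2.01, while Tgfb2 was at 13.9% ± 2.19 and 15.5% ± 1.20. In every MRTFA library Tgfb3 held at least 64.3% of the sum, and in every control at most 45.4%. These shares were not tested separately.

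**Figure D2:**
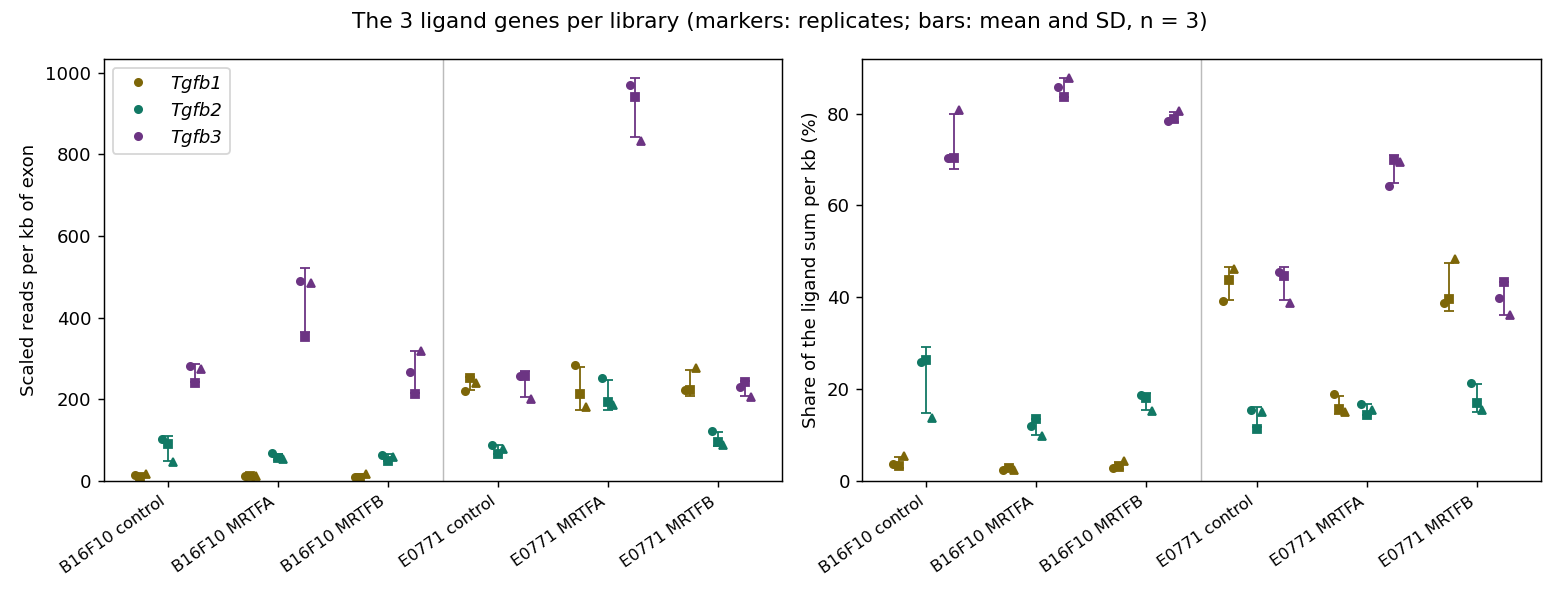
Tgfb1, Tgfb2 and Tgfb3 in each library as scaled reads per kilobase of exon (left) and as percent of their sum (right), with the mean and SD of each group of 3. In E0771 the Tgfb3 share stands at 67.9% with MRTFA and at 43.0% in controls, and in B16F10 Tgfb3 is the largest share in all 9 libraries.

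Among the receptors, Tgfbr1 read 893, 991 and 1122 in the E0771 controls and 1460, 1642 and 1614 with MRTFA. The groups did not overlap, and the log2 difference was 0.65 (SE 0.10, 95% interval 0.43 to 0.88, adjusted p = 0.000637). Tgfbr2 did not pass, at 672 to 872 in controls and 548 to 699 with MRTFA (log2 difference -0.31, 95% interval -0.68 to 0.06, adjusted p = 0.172). Per kilobase of exon, Tgfbr1 made up 62.3% ± 2.41 of the 2 receptor messages in E0771 controls and 76.2% ± 2.43 with MRTFA; it was 77.2% ± 1.98 in B16F10 controls. Smad7, the inhibitor of the type I receptor, read 758 to 867 in controls and 496 to 777 with MRTFA. Its log2 difference of -0.37 did not pass (95% interval -0.72 to -0.01, adjusted p = 0.0982), and without the second MRTFA library it passed at -0.51.

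Zeb1 doubled in E0771 with MRTFA. Scaled reads were 1824, 2023 and 1985 in the controls and 3747, 4313 and 3999 with MRTFA, and every MRTFA library lay well above every control. The log2 difference of 1.05 had the smallest error of the 10 genes in that comparison (SE 0.09, 95% interval 0.86 to 1.24, adjusted p = 5.99e-06). Zeb2 was at 2916 to 3819 in controls and 3409 to 4463 with MRTFA, and its log2 difference of 0.20 did not pass (95% interval -0.09 to 0.48, adjusted p = 0.256). The Zeb1 share of the ZEB messages per kilobase of exon went from 52.2% ± 2.37 to 66.3% ± 2.48.

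Snai2 had the largest fold among the 10 genes and the widest error. It read 6.04, 7.01 and 37.4 in the E0771 controls and 190, 141 and 184 with MRTFA. The groups did not overlap, although the third control was above 5 times the other two. The log2 difference was 3.73 (SE 0.70, 95% interval 2.18 to 5.27, adjusted p = 0.00193), and without the third control it was 4.51. With MRTFA the E0771 level reached 172 ± 26.7, beside 213 ± 44.2 in B16F10 controls.

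Vim went down. Scaled reads were 102473, 122243 and 96466 in the E0771 controls and 58376, 59204 and 54423 with MRTFA, again without overlap. The log2 difference was -0.89 (SE 0.12, 95% interval -1.15 to -0.64, adjusted p = 0.000165). Vim was still the gene with the most scaled reads of the 10 in each of these libraries, and the drop stands beside higher Zeb1 and Snai2 in the same 3 libraries.

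**Figure D3:**
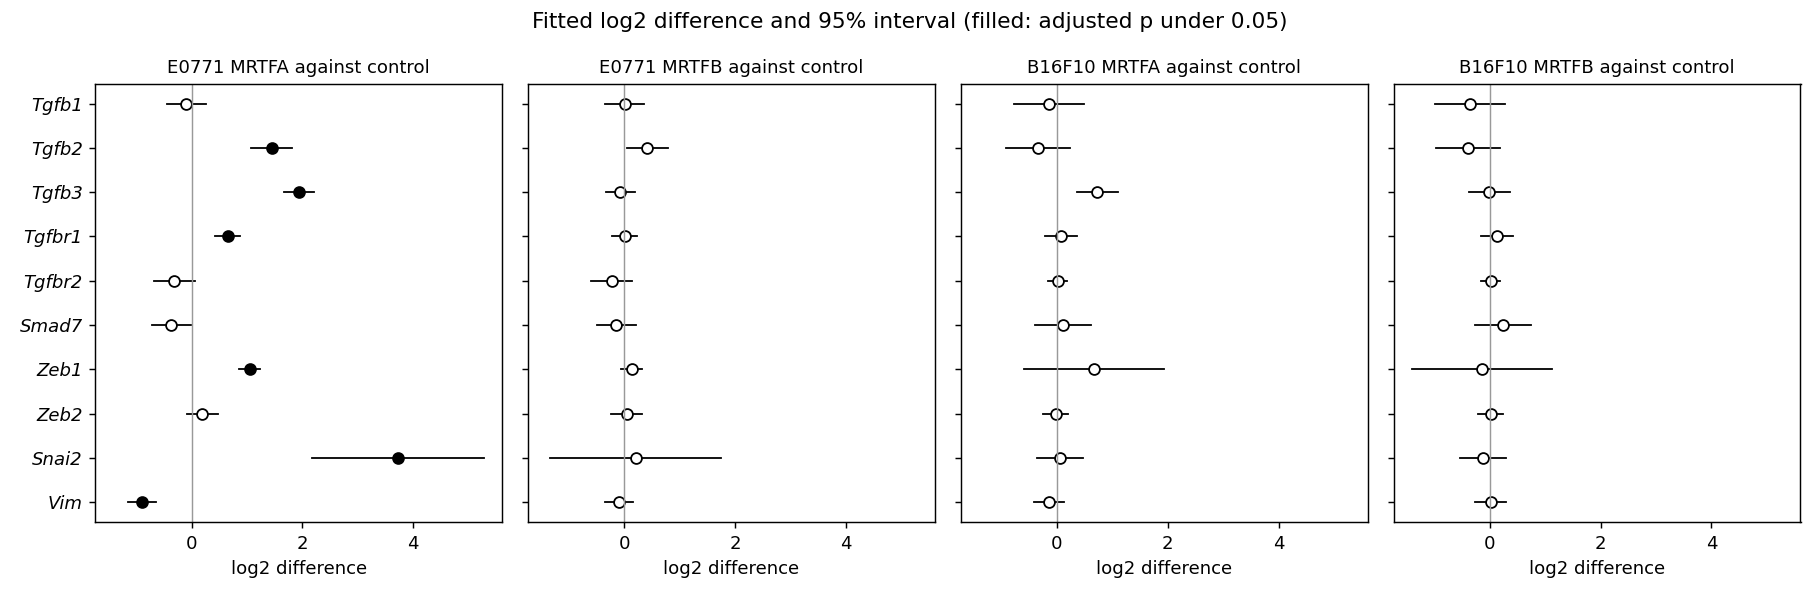
Fitted log2 difference of each gene from its line's controls, with its 95% interval, in the 4 comparisons with control; filled points passed an adjusted p of 0.05. The 6 filled points all lie in the E0771 MRTFA panel, where Snai2 is at 3.73, Tgfb3 at 1.94 and Vim at -0.89.

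For 3 of these called genes the promoter window of RefSeq (GRCm38.p6; 250 bases before to 50 after the annotated start) is shown, to set 2 genes that rose, Tgfb2 and Tgfbr1, beside the gene that fell, Vim. Each is written 5′ to 3′ along the gene's own strand, with matches to the searched motifs in capitals. Tgfb2 lies on the minus strand at chr1:186705940-186706239. Tgfbr1 lies on the plus strand at chr4:47352972-47353271 (the first of 2 windows in RefSeq). Vim lies on the plus strand at chr2:13574061-13574360.
Tgfb2: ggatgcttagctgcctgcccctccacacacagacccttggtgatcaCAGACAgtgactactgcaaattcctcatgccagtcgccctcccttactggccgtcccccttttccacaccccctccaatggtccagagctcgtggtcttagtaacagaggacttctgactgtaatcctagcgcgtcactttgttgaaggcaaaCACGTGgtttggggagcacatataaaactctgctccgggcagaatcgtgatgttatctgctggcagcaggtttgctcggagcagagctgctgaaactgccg
Tgfbr1: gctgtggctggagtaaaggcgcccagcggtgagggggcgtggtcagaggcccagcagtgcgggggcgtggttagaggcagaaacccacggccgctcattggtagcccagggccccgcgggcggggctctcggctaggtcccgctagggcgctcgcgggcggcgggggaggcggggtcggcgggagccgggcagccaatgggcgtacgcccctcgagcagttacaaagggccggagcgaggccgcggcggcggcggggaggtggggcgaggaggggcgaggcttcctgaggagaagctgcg
Vim: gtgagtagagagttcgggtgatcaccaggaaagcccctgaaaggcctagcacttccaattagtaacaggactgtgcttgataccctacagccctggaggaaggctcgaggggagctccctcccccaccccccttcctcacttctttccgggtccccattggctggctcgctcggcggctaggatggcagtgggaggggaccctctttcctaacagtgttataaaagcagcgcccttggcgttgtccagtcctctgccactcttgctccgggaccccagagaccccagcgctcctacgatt

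The motifs were searched on both strands, and none of them contains another. They were the CArG box bound by serum response factor (in 1.63% of the 32817 RefSeq promoter windows), the ZEB and Snail E-box CAGGTG (20.2%), the Smad palindrome GTCTAGAC (0.213%), the Smad sequence CAGACA (21.0%), the AP-1 site TGANTCA (7.81%), the CRE site TGACGTCA (1.79%), the E-box CACGTG (7.15%) and the TEAD sequence GGAATG (14.7%). The Tgfb2 window held CAGACA at -204 to -199 and CACGTG at -51 to -46, counting the start site as 0. Windows of 6 of the 10 genes were searched. The windows printed for Tgfbr1 and Vim, and those of Tgfb1 and Tgfbr2, held none of these letters, which says only that they are not in those 300 bases. The second Tgfbr1 window held CAGACA, and 1 of the 4 Zeb2 windows held TGANTCA at 2 places and GGAATG at 1. Neither Tgfb3 nor Snai2 had an entry, and windows of Zeb1 and Smad7 were not analysed here. A match is a description of letters and not a bound site.

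By position in GENCODE M21 (GRCm38), Tgfb1 lies on chromosome 7 (25687002 to 25705077), Tgfb2 on 1 (186622792 to 186705989), Tgfb3 on 12 (86056745 to 86079041), Tgfbr1 on 4 (47353222 to 47414931) and Tgfbr2 on 9 (116084293 to 116175360). Zeb2 and Vim are both on chromosome 2 (44983632 to 45117395 and 13573927 to 13582826), and Snai2 is on 16 (14705852 to 14709385). The sources used here do not give whether counting used strand, so reads from opposite-strand genes cannot be told apart where they overlap. Zeb2os overlaps Zeb2 exons on the opposite strand and was itself counted at 16.9 to 95.3 scaled reads per library, and Gm10125 overlaps Zeb1 exons at 0 to 10.2. Tgfb3 lies opposite Ttll5 without shared exons, and Ttll5 was counted at 727 to 1235.

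MRTFB in E0771 moved none of the 10 genes past the test. limma called 0 of 10, edgeR 0 and DESeq2 0, where limma called 0.144% of all tested genes (0.25% with the block), and 1 of the 10, Tgfb2, had an unadjusted p under 0.05. Tgfb2 read 711, 557 and 517 with MRTFB beside 506, 382 and 449 in the controls, so the lowest MRTFB library lay just above the highest control. Tgfb2 was the only one of the 10 whose libraries did not overlap, against 5.6% of all tested genes. The log2 difference was 0.41 (95% interval 0.04 to 0.78) with an adjusted p of 1 (limma), and 0.227 with replicate number as a block. The ratios within equal replicate numbers were 1.40, 1.46 and 1.15.

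Intervals for the other genes with MRTFB all included 0, and that of Snai2 was the widest. Tgfbr2 differed by -0.23 (95% interval -0.60 to 0.14), Smad7 by -0.14 (-0.50 to 0.21), Tgfb1 by 0.01 (-0.34 to 0.36) and Zeb2 by 0.04 (-0.24 to 0.33). Tgfb3 differed by -0.07 (95% interval -0.33 to 0.20), Tgfbr1 by 0.01 (-0.22 to 0.24), Zeb1 by 0.14 (-0.05 to 0.33) and Vim by -0.10 (-0.36 to 0.15). Snai2 read 12.4, 5.65 and 36.4 with MRTFB, again with the third library highest as in the controls (0.21, -1.34 to 1.75).

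Set directly against MRTFA in E0771, the MRTFB libraries had less Tgfb3, Tgfb2, Zeb1, Tgfbr1 and Snai2 message and more Vim. Control libraries do not enter the differences of this comparison, but they do enter its estimate of the spread. It also shares the MRTFA libraries with the comparison above. It called 6 of the 10, 1 higher and 5 lower with MRTFB, and the block changed none of these calls. The share of tested genes called was 33.6%, with 14.5% higher and 19.1% lower (43.8% in either direction with the block). Tgfb3 was lower by 2.01 log2 (log2 difference -2.01, SE 0.12, adjusted p = 8.74e-07) and Tgfb2 by 1.03 (-1.03, SE 0.17, adjusted p = 0.000911). For Zeb1 the log2 difference was -0.91 (adjusted p = 1.90e-05), for Tgfbr1 -0.64 (0.000834) and for Snai2 -3.52 (0.00313). Vim was higher with MRTFB, by 0.79 (adjusted p = 0.000433). The libraries of the 2 transgenes did not overlap for any of these 6 genes, against 47.1% of all tested genes. The counts of the 2 genes did not rise alike: Mkl1 rose about 10 times with MRTFA and Mkl2 by 0.68 log2 with MRTFB. Whether these counts include all transgene reads is not given, so transgene and dose cannot be told apart.

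In B16F10 the libraries labelled MRTFA showed 1 of the 10 genes standing apart, Tgfb3. It read 952, 811 and 926 in the controls and 1659, 1193 and 1642 in the libraries labelled MRTFA, without overlap (against 12.9% of all tested genes). The log2 difference was 0.73 (SE 0.16, 95% interval 0.36 to 1.09), and it did not pass the test (limma, adjusted p = 0.0704). Same-numbered B16F10 libraries varied together, and with replicate number as a block the same difference passed (limma, adjusted p = 0.000404), with ratios of 1.74, 1.47 and 1.77 within numbers. DESeq2 on the recovered reads also called it (adjusted p = 0.00196). Over 14 alternatives the difference ranged from 0.65 to 0.88 and the adjusted p from 0.000404 to 0.326, with 2 of the 14 passing.

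limma thus called 0 of the 10 in B16F10 with MRTFA, edgeR 0 and DESeq2 1, where limma called 1.55% of all 13517 tested genes (6.33% with the block). One of the 10 had an unadjusted p under 0.05. The median log2 difference of the 10 was 0.03 and that of all tested genes -0.01. Tgfb2 read 600, 520 and 269 in the controls and 394, 329 and 317 in the libraries labelled MRTFA, overlapping because the third control was low (-0.34, 95% interval -0.92 to 0.23). Snai2 (0.05, -0.36 to 0.46), Tgfbr1 (0.08, -0.21 to 0.36) and Vim (-0.15, -0.42 to 0.13) had intervals around 0. Zeb1, at 5.04, 10.3 and 14.3 scaled reads, was too low for a useful estimate (0.67, -0.60 to 1.93). Per kilobase of exon, Tgfb3 made up 85.7% ± 2.03 of the ligand messages in the libraries labelled MRTFA and 73.9% ± 5.99 in controls.

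The B16F10 libraries labelled MRTFB gave 0 of 10 by limma, edgeR and DESeq2, with 0 at an unadjusted p under 0.05, where 0.126% of all tested genes were called (4.46% with the block). Log2 differences ran from -0.40 for Tgfb2 to 0.25 for Smad7, and the 2 groups overlapped for each of the 10, where 13.8% of all tested genes did not overlap. Against the libraries labelled MRTFA, Tgfb3 was again the gene with a difference: 907, 725 and 1075 scaled reads beside 1659, 1193 and 1642, without overlap (against 7.76% of all tested genes). The log2 difference of -0.73 had an adjusted p of 0.0870 without the block and 0.000546 with it (limma). limma called 0 of the 10 there (1.09% of all tested genes, 2.66% with the block), edgeR 0 and DESeq2 1, and 1 had an unadjusted p under 0.05. Both B16F10 comparisons of Tgfb3 rest on the same 3 libraries labelled MRTFA.

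Whether the MRTFA difference itself differed between the lines was tested over all 18 libraries, as the E0771 difference less the B16F10 difference. It passed for 5 of the 10 genes, 4 higher and 1 lower in E0771, where 21.1% of all tested genes passed, 12.6% higher and 8.55% lower. Snai2 differed by 3.67 (SE 0.80, adjusted p = 0.00375), Tgfb2 by 1.79 (SE 0.33, adjusted p = 0.00109), Tgfb3 by 1.22 (SE 0.21, adjusted p = 0.000708) and Vim by -0.75 (SE 0.17, adjusted p = 0.00476). Tgfbr1 differed by 0.58 (SE 0.17, adjusted p = 0.0219), and that call was lost without B16F10 control replicate 2, B16F10 MRTFA replicate 3, E0771 control replicate 1 or E0771 MRTFA replicate 2, at 0.49 to 0.68. Zeb1, called in E0771, gave 0.38 with a wide interval (-0.83 to 1.59, adjusted p = 0.686), since B16F10 had too few reads of it. For MRTFB the same test passed for 0 of the 10 by limma, edgeR and DESeq2, where 0.114% of all tested genes passed in limma. Tgfb2 alone had an unadjusted p under 0.05 there (0.81, 95% interval 0.11 to 1.51, adjusted p = 0.868). Mkl1 rose in E0771 and did not pass in B16F10, so line and transgene level cannot be told apart in these differences.

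Other genes were read from lists of pathway components and response genes, mesenchymal factors and markers, and epithelial genes. Among genes of latency and activation, 6 of 9 tested rose in E0771 with MRTFA and 0 fell, with a median log2 difference of 1.91. Over all tested genes 20.3% rose, 18.1% fell and the median was -0.02. They included Furin (2.05), the protease that cleaves the ligand precursors, Ltbp2 (3.09), of the latent TGF-beta binding protein family, and Thbs1 (1.99), an activator of the latent complex. Nrros, which tethers latent TGF-beta to cells, was called too. It read 0 to 1.87 scaled reads in controls and 17.9 to 32.4 with MRTFA, too few in controls for a fold. It passed the filter on low values only through the MRTFA libraries, so its direction was fixed in advance. The count and median of the latency list include it. Among other receptors and coreceptors, 5 of 9 rose and 2 fell (median 0.35). Acvrl1 (3.16), Acvr1b (0.84), Acvr1 (0.75) and Eng (0.79) rose, the first 3 being type I receptors and Eng the coreceptor endoglin. The 2 that fell, named after their values were seen, were the coreceptor Tgfbr3 (-0.51) and the BMP receptor Bmpr1a (-0.33), whose call was lost without E0771 control replicate 3 or MRTFA replicate 1, at -0.25 to -0.38.

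Of the Smads 2 of 10 were higher and 3 lower, with a median of -0.03, beside 20.3% higher and 18.1% lower over all tested genes. Smad1 (0.98), which serves BMP receptors, and the shared partner Smad4 (0.71) rose, and Smad3 (-0.61), which serves TGF-beta receptors, and the Smad anchor Zfyve9 (-0.50) fell. Of the TGF-beta response genes, 4 of 9 rose and 0 fell (median 0.68). Ctgf, a matricellular growth factor gene, averaged 1028 ± 59.2 scaled reads in controls and 33502 ± 5132 with MRTFA (5.01, SE 0.16, adjusted p = 9.41e-09). Tgif1 (0.60) and Junb (1.85) also passed, and both depended on single libraries. Tgif1 lost the call without E0771 control replicate 1 or 2 or MRTFA replicate 3 (0.43 to 0.74), and Junb without any 1 of the 6 libraries but control replicate 2 (1.20 to 2.27). edgeR and DESeq2 called Skil, a Smad corepressor gene, in place of Junb.

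Among other mesenchymal factors and markers 3 of 9 rose and 0 fell (median 0.14), beside 20.3% higher over all tested genes. They were the transcription factor genes Prrx1 (0.95), Twist1 (0.61) and Snai1 (0.77), of which 2 depended on single libraries. Twist1 lost the call without control replicate 2 or MRTFA replicate 1 (0.52 to 0.75), and Snai1 without control replicate 1 or 3 or MRTFA replicate 1 or 2 (0.59 to 0.96). Of the epithelial genes, limma called 4 of 7 higher in E0771 with MRTFA and 0 lower (median 0.87). St14, a membrane serine protease gene named after its values were seen, had a log2 difference of -1.29 that did not pass in limma (adjusted p = 0.0808) and passed as lower in DESeq2 (-1.42, adjusted p = 0.0466). The keratin gene Krt8 (1.22) and the epithelial splicing regulator Esrp2 (1.87) rose. Elf3 (2.27) and Ovol1 (0.87), both epithelial transcription factor genes, passed too. Elf3 lost the call without control replicate 1 or 2 or MRTFA replicate 3 (1.88 to 2.98), and Ovol1 without control replicate 1 or 2 or MRTFA replicate 2 or 3 (0.70 to 1.04). Thus Zeb1, Snai2 and 4 of the 7 epithelial genes were all higher in the same libraries. The other 3 had differences below 0 and were not called. With the replicate block St14 and Ocln, named after its values were seen, passed as lower, beside 3168 of all 13189 tested genes. Cdh1, the E-cadherin gene, did not pass the filter on low values in E0771 and is not among the 7. These lists were drawn up with earlier results of these data known, so their counts are descriptions.

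**Figure D4:**
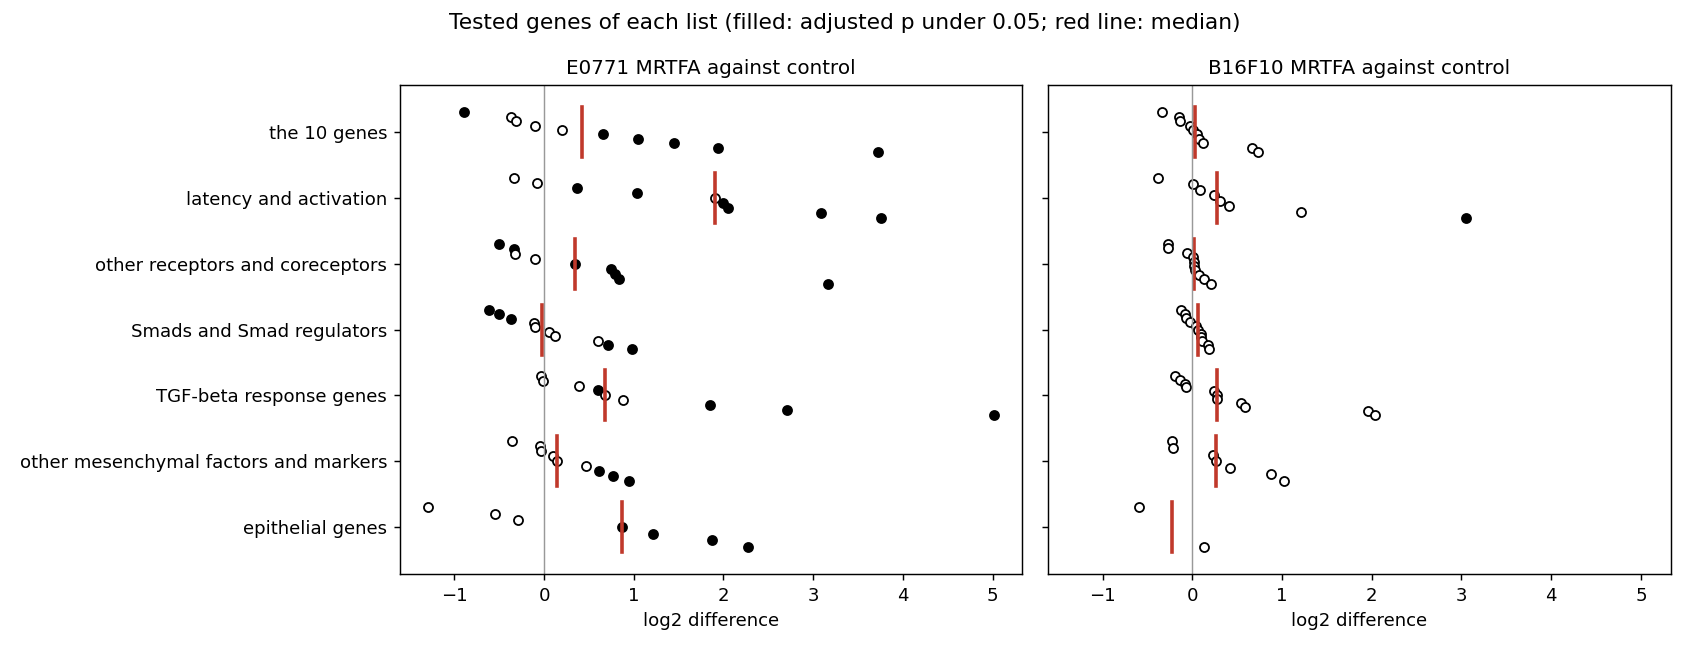
Log2 difference from control of every tested gene of each list in the E0771 MRTFA (left) and B16F10 MRTFA (right) comparisons, filled where the adjusted p was under 0.05, with the list's median in red. Filled points appear in each list on the left, and on the right only Ltbp1, at 3.05, is filled.

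In the B16F10 libraries labelled MRTFA, 1 of 8 genes of latency and activation was called. Ltbp1, of the latent TGF-beta binding protein family, averaged 59.4 ± 6.66 scaled reads in controls and 518 ± 179 there (log2 difference 3.05, limma, adjusted p = 0.0192). That call was lost without any 1 of the 6 libraries but control replicate 3, at 2.80 to 3.32. With the block 2 genes of the list passed, Ltbp1 (adjusted p = 0.000820) and Thbs1 (1.21, adjusted p = 0.0106). In E0771, where Ltbp1 was at 3783 ± 678 in controls, it did not pass (-0.08, adjusted p = 0.770). limma called 0 of the 11 response genes in B16F10, with 1 at an unadjusted p under 0.05, and edgeR and DESeq2 called 0. With the block Ctgf passed (2.03, adjusted p = 0.000243). In each of the 3 B16F10 groups the library numbered 3 was the highest for Ctgf, which read 2654 in control replicate 3 beside 796 and 1037. limma also called 0 of 10 other receptors (2 at an unadjusted p under 0.05), 0 of 11 Smads (0), 0 of 7 other mesenchymal genes (0) and 0 of 2 epithelial genes (0), and edgeR and DESeq2 called 0 in each. With the block Acvrl1 (-0.28) and the N-cadherin gene Cdh2 (-0.23) passed as lower. In the libraries labelled MRTFB limma called 0 genes in each of the 6 lists, with 2 other receptors, 1 Smad and 1 epithelial gene at an unadjusted p under 0.05. There edgeR called 0 and DESeq2 called 2, Acvrl1 and Cdh1. With the block 1 response gene and 1 Smad passed as higher, and 2 other receptors and 1 epithelial gene as lower, beside 4.46% of all tested genes. In E0771 with MRTFB, Ctgf alone of the 9 response genes passed (1.03, adjusted p = 0.0380), and lost the call without any 1 of the 6 libraries but MRTFB replicate 1, at 0.89 to 1.20. DESeq2 called it and edgeR did not. In the latency list Thbs1 (1.83) did not pass in limma; it passed with the block (adjusted p = 0.0228), in DESeq2 (0.00185) and without E0771 control replicate 3 (2.22), and was named after its values were seen. With MRTFB against MRTFA in E0771, where 14.5% of all tested genes were higher and 19.1% lower, 6 of 9 genes of latency and activation, 4 of 9 other receptors, 3 of 9 response genes, 2 of 9 other mesenchymal genes and 3 of 7 epithelial genes were lower and 0 of these lists' genes higher. The latency count includes Nrros, which passed the filter only through the MRTFA libraries. Of the 10 Smads 3 were higher and 2 lower. With the block 6 of 9 response genes, 4 of 9 other mesenchymal genes and 4 of 7 epithelial genes were lower, and 2 other receptors and 1 other mesenchymal gene were higher.

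The genes whose pattern was most like each called gene were taken by Pearson r over the 18 libraries, on log2 values less the mean of the line's own controls. The 3 E0771 MRTFA libraries can drive such a value, so r is given with all 18 and with the other 15. No p is given, and nothing is said of shared function. For Tgfb3 the closest were Tmem63a (r = 0.98 and 0.91) and Qpctl (0.98 and 0.88). Tgfb2 was followed most closely by Svil (0.96 and 0.89) and Zbtb18 (0.95 and 0.84). The 2 nearest to Tgfbr1 were Cblb (0.93 and 0.72) and Faxc (0.93 and 0.75). Zeb1 was nearest to Noct (0.88 and 0.88) and Etv5 (0.85 and 0.83), Snai2 to Rgl1 (0.98 and 0.89) and Rfx5 (0.98 and 0.87), and Vim to Slc29a1 (0.94 and 0.61) and Atpif1 (0.94 and 0.70). Zeb1 had few reads in the B16F10 libraries, where counting error enters its log2 values, so depth limits both of its r values.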

How the data were processed

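RNA was sequenced from 18 cell culture libraries, placed in 6 groups of 3 from the titles. Per the submitters' processing notes, cutadapt 1.6, STAR 2.5.0a, HTSeq 0.5.3 and DESeq were used with mm10; the sources used here do not give the annotation release or counting mode. Each deposited value is a signal, namely the reads of a gene, which the authors divided by a DESeq size factor. Whole reads were recovered for 100% of values (within 0.001 read).

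Differences were tested with limma 3.58.1 (trend, R 4.3.3, two-sided) on log2 of the value plus 1. Genes needed 3 or more fitted libraries at 10 or above, with Benjamini-Hochberg adjustment over all genes tested and a threshold of 0.05. The log2 scale with that pseudocount understates changes of low genes. Each line's 9 libraries were fitted together, and all 18 for comparisons between lines. Alternatives were edgeR 4.0.16 and DESeq2 1.42.0 on the recovered reads, other scalings, filters and pseudocounts, a replicate block and leaving out each library.

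Equal replicate numbers were read as pairs where every correlation of deviations from the group means was over 0.1. That held for both comparisons with control in B16F10 (0.35 to 0.57 and 0.38 to 0.49), for MRTFB in E0771 (0.46 to 0.55) and for MRTFB against MRTFA (0.40 to 0.63 in B16F10, 0.13 to 0.47 in E0771), and not for MRTFA in E0771 (lowest 0.08) or between lines. It comes from the data, not the labels.

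The 10 genes and all lists were chosen with earlier results of these data known. All 10 are described; of another list at most 4 called genes with the smallest adjusted p are named per comparison (some are not reported here), and for each called gene of the 10 the 2 genes with the highest r (mean value at least 50). Not analysed here, as not matched by symbol, were Itgb6, Cdkn2b, Foxc2, Esrp1, Ovol2, Krt18, Cldn4, Ptprc, Cd3e, Emr1, Kdr, Tek and Lum. Exon lengths are the union of all annotated exons of a gene in GENCODE M21, which can be longer than the transcripts present. Shares per kilobase depend on these lengths. Reads carry no molecular identifiers, so depth limits cover counting error only.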

Additional observations from a re-analysis of the deposited data

Results flagged for a closer look

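For 5 genes the MRTFA difference from control was not the same in the 2 lines by a test of the difference itself (limma over all 18 libraries, E0771 less B16F10). Snai2 gave 3.67 on the log2 scale, Tgfb2 1.79, Tgfb3 1.22, Tgfbr1 0.58 and Vim -0.75. Without the third E0771 control the Snai2 value was 4.46. Tgfb3 was higher with MRTFA than in control between all same-numbered libraries of both lines, with ratios of 3.65 to 4.14 in E0771 and 1.47 to 1.77 in B16F10. Tgfb2 had ratios of 2.39 to 2.94 in E0771 and 0.63 to 1.18 in B16F10. Mkl1 rose in E0771 and did not pass in B16F10, so line and transgene level cannot be told apart.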

How the results depend on the processing

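Each result on the 10 genes was recomputed with a pseudocount of 5, without the filter, with a minimum of 50, with upper-quartile and TMM scaling, with edgeR, with DESeq2, with a replicate block and without each library in turn, and no called gene changed direction. Zeb1 in the B16F10 comparisons was below the filter in some of these and had 10 to 12 of 14 alternatives. Differences near 0 that changed sign without passing the test were read as having no direction. In B16F10 the count of the 10 genes called with MRTFA against control went from 0 to 1 under DESeq2 and to 1 with the replicate block, and for MRTFB against MRTFA from 0 to 1 under DESeq2, to 1 with the block and to 0 to 1 over left-out libraries (1 without B16F10 MRTFB replicate 3, at -0.89). The gene was Tgfb3 in each case. In E0771 MRTFA against control the block called 9 of the 10, beside 6405 of all 13189 tested genes (5064 without it). It added Smad7 (limma, adjusted p = 0.0277) and Tgfbr2 (0.0409) as lower and Zeb2 (0.0460) as higher. These replicate numbers were not read as pairs. The block changed no other call of the 10 genes.

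Over all genes, calls with the block were 855 beside 209 for B16F10 MRTFA, 603 beside 17 for B16F10 MRTFB, 33 beside 19 for E0771 MRTFB and 359 beside 148 for B16F10 MRTFB against MRTFA. DESeq2 gave 357, 179 and 51 for the first 3 of these and 41 beside 17 for the line difference of MRTFB. TMM scaling gave 6 for B16F10 MRTFB, and a minimum of 50 gave 107, 5 and 71 for the 3 B16F10 comparisons, where testing every gene gave 324 and 260 for the MRTFA comparison and MRTFB against MRTFA. A pseudocount of 5 gave 28 for the line difference of MRTFB. Leaving out 1 library gave 37 to 324 for B16F10 MRTFA, 0 to 129 for B16F10 MRTFB, 7 to 15 for E0771 MRTFB, 10 to 213 for B16F10 MRTFB against MRTFA, 2 to 47 beside 17 for the line difference of MRTFB, 2571 to 4392 beside 4430 for E0771 MRTFB against MRTFA, and 3260 to 4621 beside 5064 for E0771 MRTFA. Depth limits Zeb1 in B16F10, with 2 to 15 reads a library, and Snai2 in E0771 without MRTFA.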
